A study of Homo sapiens with 5 samples.

Results

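The E-box circadian clock genes are 10 genes of the molecular clock that either act through the E-box or are driven from it, and they were examined for ChIP-Seq peaks of Fra-1, MYC and E2F1. The list was fixed by gene name (CLOCK, PER1, PER2, PER3, CRY1, CRY2, NR1D1, NR1D2, BHLHE40 and BHLHE41) and makes up 10 of the 20098 protein-coding genes on chromosomes 1 to 22 and X. Peaks were assigned to a member when they overlapped the promoter (2 kb upstream to 2.5 kb downstream of any annotated TSS), the gene body or the 10 kb on either side of the gene. The cells were LM2, a lung-metastatic subline of the breast cancer cell line MDA-MB-231, labelled as untreated and crosslinked with formaldehyde. A supplement of the study mentions vector-carrying LM2 cells beside its ChIP-Seq, so whether these cells carried a control vector is not settled by the sources. Each factor was immunoprecipitated once, with antibodies against Fra-1, c-Myc and E2F1, and 1 input library served all 3. An EZH2 sample and the input are also in the series, and no peak list of either was used here. With 1 library per factor there is no replicate spread, so no test was made between factors or members. The labels name no time of day and no synchronization of the cells, so a position in the daily cycle cannot be assigned to the libraries.

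In the molecular clock, CLOCK pairs with BMAL1 and activates transcription from E-boxes, whose full form is CACGTG. The PER and CRY proteins are among the products and repress CLOCK and BMAL1, which closes the main feedback loop. NR1D1 and NR1D2 (REV-ERB alpha and beta) are nuclear receptors that repress BMAL1, and BHLHE40 and BHLHE41 (DEC1 and DEC2) are basic helix-loop-helix repressors that occupy E-boxes themselves. MYC also binds CACGTG, as a dimer with MAX. Fra-1, the product of FOSL1, is an AP-1 subunit that binds TGACTCA or TGAGTCA with a JUN partner, and E2F1 is a cell cycle factor that binds GC-rich E2F sites.

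All 10 clock genes had an E2F1 promoter peak (61.3% of protein-coding genes had one), whereas MYC (17.8%) and Fra-1 (13.2%) each marked 4 promoters and those lists differed. MYC peaks lay at the promoters of PER1, PER2, NR1D1 and BHLHE40, and Fra-1 peaks at those of NR1D1, NR1D2, BHLHE40 and BHLHE41. NR1D1 and BHLHE40 were the members with promoter peaks of all 3 factors, which 4.67% of protein-coding genes had. CLOCK, PER3, CRY1 and CRY2 had E2F1 promoter peaks alone. Of protein-coding genes with an E2F1 promoter peak, 29.0% also had MYC there and 20.1% had Fra-1, so E2F1 alone was common. By fold enrichment, the strongest promoter peaks of MYC, Fra-1 and E2F1 among the members were all at NR1D1, with other members close for E2F1.

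Sequences under some of the summits behind these results are printed here first. Each is 101 bases of GRCh37 (hg19) centred on a summit, written 5′ to 3′ on the strand of the gene. Capitals mark an E-box (CACGTG), an AP-1 site (TGACTCA or TGAGTCA) or a CRE (TGACGTCA). The MYC summits at PER1 hold an E-box or a CRE and those printed for PER2 and BHLHE40 hold none of these, while the Fra-1 summits printed for PER3, NR1D1 and BHLHE40 hold AP-1 sites. Not printed are the Fra-1 promoter summits of NR1D2 and BHLHE41 and the weaker one of NR1D1. None of these had an AP-1 site within 50 bp. PER1, NR1D1 and PER2 are on the minus strand, and PER3 and BHLHE40 are on the plus strand.
PER1 MYC, chr17:8055849-8055949: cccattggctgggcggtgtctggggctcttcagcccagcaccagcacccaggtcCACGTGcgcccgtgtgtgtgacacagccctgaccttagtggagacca
PER1 MYC, chr17:8057591-8057691: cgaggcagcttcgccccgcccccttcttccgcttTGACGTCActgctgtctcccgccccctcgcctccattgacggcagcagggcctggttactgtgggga
PER2 MYC, chr2:239197613-239197713: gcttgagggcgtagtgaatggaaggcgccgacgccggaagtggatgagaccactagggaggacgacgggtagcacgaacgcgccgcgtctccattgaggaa
BHLHE40 MYC, chr3:5020424-5020524: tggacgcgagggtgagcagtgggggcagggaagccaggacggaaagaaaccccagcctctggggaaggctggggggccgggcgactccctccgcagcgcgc
NR1D1 Fra-1, chr17:38257509-38257609: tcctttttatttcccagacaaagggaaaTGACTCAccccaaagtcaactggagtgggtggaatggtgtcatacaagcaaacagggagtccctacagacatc
PER3 Fra-1, chr1:7870581-7870681: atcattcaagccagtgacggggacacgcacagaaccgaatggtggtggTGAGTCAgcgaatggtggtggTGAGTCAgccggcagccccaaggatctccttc
BHLHE40 Fra-1, chr3:5022202-5022302: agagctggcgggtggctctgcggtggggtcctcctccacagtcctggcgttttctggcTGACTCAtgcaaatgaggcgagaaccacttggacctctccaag

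Against the 61.3% of all protein-coding genes, the 10 of 10 members (100%, 95% Wilson interval 72.2 to 100) are a high share of a common class. For MYC the share of members was 40% (interval 16.8 to 68.7) against 17.8% of protein-coding genes. Fra-1 gave the same share, 40% of members, against 13.2%. These intervals cover counting error only, and not the choice of the members, which was made with earlier results of these data known. Those for MYC and Fra-1 are wide: the MYC interval includes its background and the lower end of the Fra-1 interval is near its own. MYC peaks seldom occur away from E2F1 peaks in these lists, and among genes with an E2F1 promoter peak 29.0% also had MYC at the promoter and 20.1% had Fra-1. Both of these shares lie inside the interval of the members. Promoter peaks of all 3 factors occurred at 2 members, or 20% (5.67 to 51.0), and at 4.67% of protein-coding genes. The counts depend on how many peaks each list holds. When all lists were reduced to the 4867 peaks with the largest −log10 q, NR1D1 was the only member left with an E2F1 promoter peak (25.7% of protein-coding genes) and the only one left for Fra-1 (3.43%). At a −log10 q of at least 5, MYC promoter peaks remained at PER1 and NR1D1 (12.7%). BHLHE41 lost its Fra-1 promoter peak at that cutoff, with a −log10 q of 4.88.

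**Figure D1:**
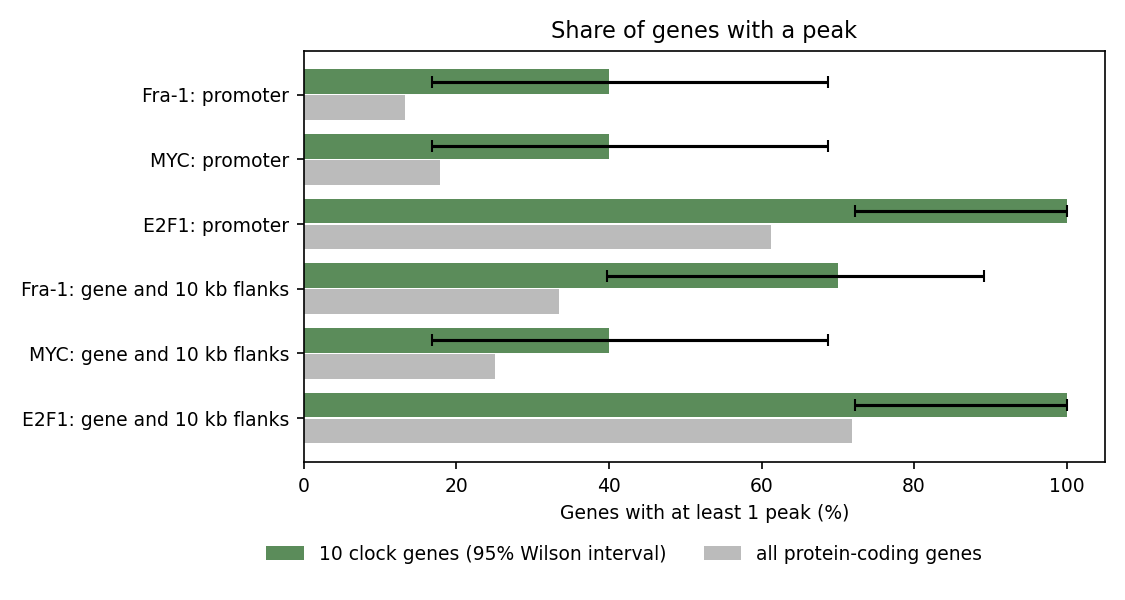
Percent of genes with at least 1 peak of Fra-1, MYC or E2F1 in the promoter or in the gene with its 10 kb flanks, for the 10 clock genes (green bars, lines are 95% Wilson intervals) and all 20098 protein-coding genes (grey bars). The share for E2F1 is 100% of members in both, and the intervals for Fra-1 and MYC are wide.

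With gene bodies and flanks included, Fra-1 reached 7 members (33.5% of protein-coding genes), the additional ones being CLOCK, PER1 and PER3. MYC stayed at 4 (25%) and E2F1 at 10 (71.9%). The 634 kb of sequence held 65 member peaks, of which 13 were of Fra-1, 9 of MYC and 43 of E2F1. Promoters held 7 of 9 MYC peaks, 23 of 43 E2F1 peaks and 5 of 13 Fra-1 peaks, and the other Fra-1 peaks were in gene bodies (5) and flanks (3). Differences between these shares were not tested. Per 100 kb the members had 2.05 Fra-1, 1.42 MYC and 6.78 E2F1 peaks, and the spans of protein-coding genes had 0.772, 0.456 and 2.64. Span length and the number of start sites enter these densities and were not matched. Sequencing depth differed too, with 12931227 filtered tags in the Fra-1 library, 23853621 in the MYC library and 18056168 in the E2F1 library, and the whole lists held 17320, 4867 and 36933 peaks.

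**Figure D2:**
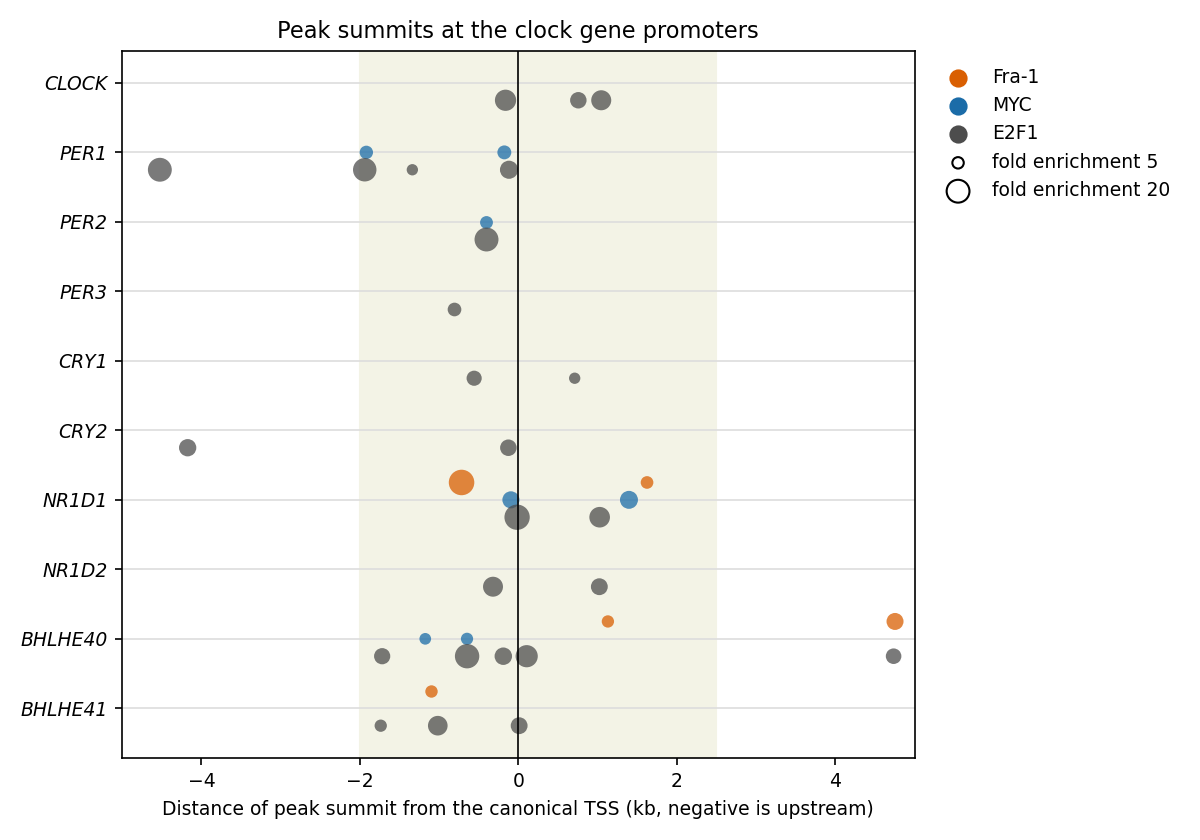
Distance in kb of each peak summit from the canonical TSS of the 10 clock genes, with Fra-1 in orange, MYC in blue and E2F1 in grey, and point area proportional to fold enrichment; the shaded band is the promoter window of that TSS. MYC summits sit beside E2F1 summits at PER1 and PER2, and NR1D1 has points of all 3 factors, whereas the Fra-1 promoter peak of NR1D2 belongs to a start site within the gene and is beyond the plot.

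The activator CLOCK (ENSG00000134852.15, chr4:56294070-56413076, minus strand) had 3 E2F1 promoter peaks and no MYC peak. The strongest, at chr4:56412869-56413914, had its summit 162 bp upstream of the TSS, a pileup of 33 and a fold enrichment of 17.3, the ratio of the pileup to the local input background. Its percentile, the share of the E2F1 list at or below that fold enrichment, was 76.7. The other 2 summits were 757 and 1046 bp downstream of the same TSS, with fold enrichments of 10.4 and 15.4. Fra-1 marked CLOCK only in an intron, 88.5 kb into the gene, where a weak peak (6.24, percentile 23.9) had its summit 13 bp from an E2F1 summit of 7.06.

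Among the PER repressors, PER1 (ENSG00000179094.16, chr17:8043790-8059824, minus strand) had the most peaks. Its promoters held 2 MYC and 4 E2F1 peaks. One MYC peak, chr17:8055762-8055926, had its summit 177 bp upstream of the canonical TSS, with a pileup of 9, a fold enrichment of 7.44 and a percentile of 64.5 in the MYC list. The E-box CACGTG at chr17:8055890-8055895 was 6 bp from that summit, in the sequence printed above. The E2F1 peak over it (fold enrichment 12.6) had its summit 59 bp away. The second MYC peak, 1919 bp upstream, had a fold enrichment of 6.9 and no E-box, and its summit was 20 bp from an E2F1 summit of 21.1. Both summits stood beside a CRE, TGACGTCA at chr17:8057650-8057657, which occurred within 50 bp of 1.05% of all MYC summits and 0.466% of all E2F1 summits. The CRE was searched for after this sequence had been seen.

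The remaining E2F1 promoter peaks of PER1 were unequal. One at an upstream start site reached 21.9 with a pileup of 48, and the other, 1338 bp upstream of the canonical TSS, reached 4.93 with a pileup of 9. The summit of this weaker peak lay 1 bp from an E-box. A further 8 E2F1 peaks were in the flanks of PER1, and 5 of them overlapped promoter windows of the neighbouring gene VAMP2, a vesicle fusion protein gene, so they cannot be assigned to PER1 alone. The promoter summits of MYC and E2F1 at PER1 also fell inside an overlapping annotated gene, ENSG00000263620. Fra-1 had 1 peak here, downstream of the gene (fold enrichment 6.71), with TGAGTCA 15 bp from the summit.

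PER2 (ENSG00000132326.13, chr2:239152685-239198743, minus strand) had 1 promoter peak each of MYC and E2F1 and none of Fra-1. The MYC peak, chr2:239197566-239197716, had a pileup of 7, a fold enrichment of 6.33 and a percentile of 40.5. The E2F1 peak had a pileup of 30 and a fold enrichment of 22, and the summits were 7 bp apart. The MYC peak of PER2 held no CACGTG, and the only one in the promoter window lay 851 bp upstream of the TSS under no peak.

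PER3 (ENSG00000049246.15, chr1:7844351-7905237, plus strand) differed from PER1 and PER2 in having no MYC peak and the weakest E2F1 promoter signal of the 10 genes. Its E2F1 peak, 807 bp upstream of the TSS, had a pileup of 10 and a fold enrichment of 7.17. In contrast, a Fra-1 peak lay in the coding sequence at chr1:7870527-7870740, 26280 bp downstream of the TSS, with a pileup of 49, a fold enrichment of 12.7 and a percentile of 80.8. No E2F1 or MYC peak overlapped it. This peak held 3 copies of TGAGTCA at 1, 22 and 65 bp from the summit, and the 2 that are visible in the printed window start 21 bp apart.

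The cryptochrome repressors CRY1 and CRY2 had E2F1 peaks only, and no CACGTG in the promoter window. At CRY1 (ENSG00000008405.12, chr12:107385142-107487327, minus strand) the main promoter peak, chr12:107487023-107488239, had a pileup of 51, the second highest of the members after NR1D1. Its fold enrichment was only 8.81, since the local background, worked back from these values, was 4.91, against at most 2.93 at E2F1 peaks of the other members. The order of CRY1 among the members therefore went from 9 by fold enrichment to 2 by pileup. A second promoter peak, with its summit in the coding sequence, was low (fold enrichment 4.93, percentile 11.6) and had TGAGTCA within 50 bp of the summit. The peak downstream of CRY1 (fold enrichment 19) overlapped a promoter window of MTERF2, a neighbouring gene.

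At CRY2 (ENSG00000121671.12, chr11:45868669-45904799, plus strand) the promoter peak had its summit 126 bp upstream of the TSS, with a pileup of 15 and a fold enrichment of 10.5. Another E2F1 peak lay 4174 bp upstream and reached 11.5. The 2 values are close, and without replicates they cannot be ordered.

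NR1D1 (ENSG00000126368.6, chr17:38249046-38256842, minus strand) carried the promoter peak of highest fold enrichment of each factor among the 10 genes, with other members close for E2F1. The Fra-1 peak at chr17:38257438-38257665 had its summit 717 bp upstream of the TSS, a pileup of 49 and a fold enrichment of 25, which is rank 357 in the Fra-1 list and percentile 97.9. The site TGACTCA was 19 bp from this summit. A second Fra-1 peak, in the intron 1624 bp downstream, was weaker at 6.16. It held no whole AP-1 site, but one at chr17:38255313-38255319 crossed its edge.

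MYC had a pair of promoter peaks at NR1D1, of nearly equal height. The upstream one, 94 bp from the TSS, had a pileup of 22 and a fold enrichment of 11.2. The intronic one had a pileup of 21 and a fold enrichment of 12.4 (percentile 94.8). The upstream MYC peak held no CACGTG.

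E2F1 covered the NR1D1 promoter in 2 broad peaks of 1192 and 1333 bp. The one at the TSS had its summit 16 bp upstream, a pileup of 72 and a fold enrichment of 24.6, the highest E2F1 values among the members. The fold enrichments of BHLHE40 (22.8), PER2 (22) and PER1 (21.9) were close to this, and without replicates they cannot be ordered. The intronic E2F1 peak of NR1D1 reached 16.3. At the TSS the MYC and E2F1 summits were 78 bp apart, whereas the Fra-1 summit was 701 bp from the E2F1 summit although the peaks overlapped. No stretch of the NR1D1 promoter was covered by all 3 factors, since no MYC peak overlapped a Fra-1 peak there. A weak pair of MYC and E2F1 peaks (3.75 and 5.91) lay 7.8 kb upstream with summits 15 bp apart, and an E-box was 22 bp from the MYC summit.

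NR1D2 (ENSG00000174738.13, chr3:23986777-24022108, plus strand) had no MYC peak and mainly intronic Fra-1 peaks. The strongest Fra-1 peak, chr3:24000809-24001127, had a pileup of 40 and a fold enrichment of 13.9 (percentile 85.0), with an E2F1 summit of 11.5 at 27 bp. The Fra-1 peak counted as a promoter peak (8.95) lay 18511 bp downstream of the canonical TSS, at the window of an internal start site, and was lost when protein-coding transcripts alone or 1 canonical transcript per gene were used. At the canonical promoter E2F1 had peaks of 15.3 and 10.9, both also in promoter windows of NKIRAS1, which is transcribed from the same region. The stronger of these was the only E2F1 peak of the members with an E2F motif within 50 bp of the summit, shown in capitals in the printed sequence. The motif was searched as TTTCCCGC, TTTCGCGC, TTTGCCGC or TTTGGCGC on both strands, and the capitals give the reverse strand of the first.
NR1D2 E2F1, chr3:23986407-23986507: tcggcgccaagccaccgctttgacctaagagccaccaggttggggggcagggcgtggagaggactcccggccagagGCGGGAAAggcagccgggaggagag

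BHLHE40 (ENSG00000134107.5, chr3:5021122-5027008, plus strand) had promoter peaks of all 3 factors. Its 2 MYC promoter peaks, 1175 and 648 bp upstream, were low, with a pileup of 9 each and fold enrichments of 5.24 and 5.73 (percentiles 13.3 and 25.9). Both lay under 1 E2F1 peak, chr3:5019836-5020704, of pileup 47 and fold enrichment 22.8, whose summit was 1 bp from that of the second MYC peak and 528 bp from that of the first. An E-box was 68 bp from the first MYC summit and the second MYC peak held none. The other 3 E2F1 promoter peaks had fold enrichments of 10.1, 11.7 and 18.9. The Fra-1 promoter peak, 1130 bp downstream in an intron, had a fold enrichment of 5.83 and TGACTCA 11 bp from its summit.

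BHLHE40 also held the single region of the 10 genes where peaks of all 3 factors overlapped, chr3:5028577-5028728, 152 bp wide and 7.5 kb downstream of the TSS, beyond the end of the gene. Such a region occurred in the span of 5.53% of protein-coding genes. The fold enrichments there were 5.91 for MYC, 9.65 for Fra-1 and 21.1 for E2F1. The MYC summit was 37 bp from the E2F1 summit and 113 bp from the Fra-1 summit. The Fra-1 peak there held no AP-1 site and the MYC peak no CACGTG. In addition, Fra-1 and E2F1 peaks overlapped at the 3′ end of the gene (11.1 and 9.31, summits 18 bp apart) and 15.7 kb downstream of the TSS (8.35 and 14.9, 31 bp apart), and in both places an AP-1 site lay no more than 1 bp from the Fra-1 summit.

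BHLHE41 (ENSG00000123095.6, chr12:26272963-26277970, minus strand), the paralogue of BHLHE40, had no MYC peak. Its Fra-1 promoter peak was weak, with a pileup of 10, a fold enrichment of 5.91 and its summit 1108 bp upstream, where the region is also part of the SSPN gene. An E2F1 summit of 14.8 lay 91 bp from it. The E2F1 peak at the TSS itself (10 bp downstream) had a fold enrichment of 10.9, and one farther upstream had 5.8.

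**Figure D3:**
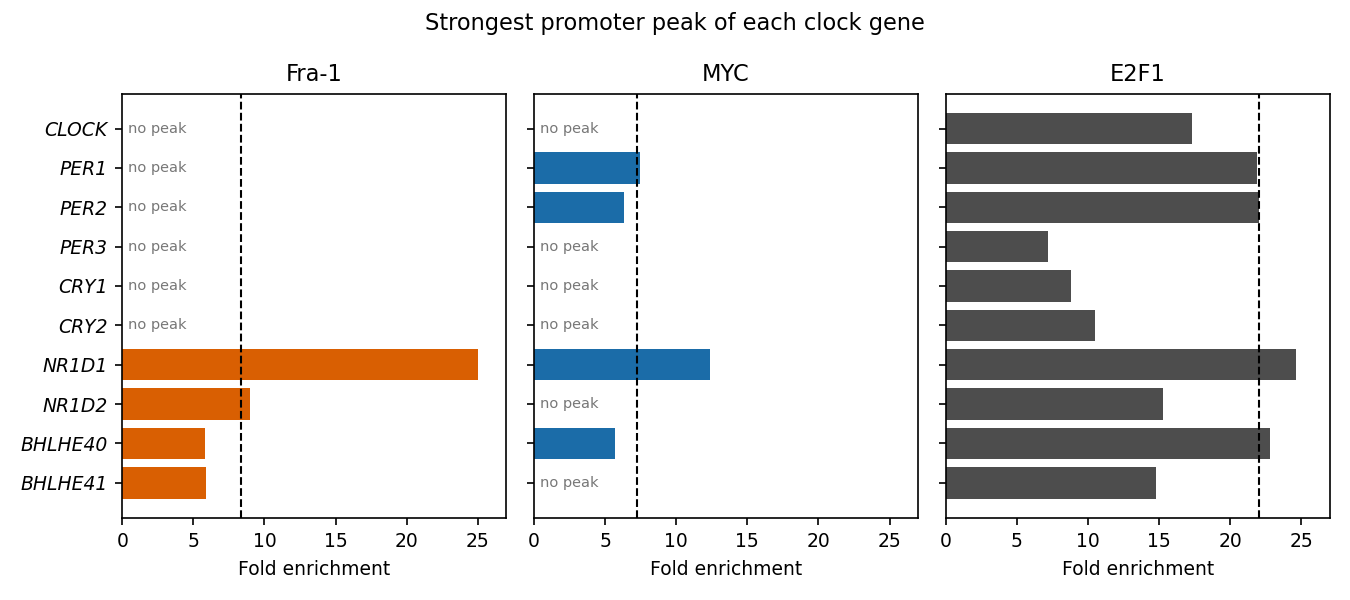
Fold enrichment of the strongest promoter peak of each clock gene for Fra-1, MYC and E2F1, 1 library each; dashed lines are the medians over protein-coding genes with a promoter peak of that factor (8.38, 7.22 and 22). NR1D1 has the longest bar in each panel, and bars of different panels come from libraries of different depth.

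Set against all genes with a promoter peak, the members were not unusually strong for E2F1. Their strongest E2F1 promoter peaks had a median fold enrichment of 16.3, the median over protein-coding genes was 22 (quartiles 13.4 and 32.5), and 2 members, NR1D1 and BHLHE40, were above it. For MYC the members' median was 6.88 against 7.22, with NR1D1 and PER1 above. For Fra-1 it was 7.43 against 8.38, with NR1D1 and NR1D2 above. Having 3 or more E2F1 promoter peaks was seen at 4 members (CLOCK, PER1, BHLHE40 and BHLHE41) and at 17.4% of all protein-coding genes. Among protein-coding genes with an E2F1 promoter peak, which all members had, the share was 28.4%. The number of start sites enters this count and was not matched.

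MYC peaks at the clock genes always lay over E2F1 peaks. All 9 overlapped one, as did 96.1% of the whole MYC list, and 7 of the 9 pairs had summits between 1 and 78 bp apart. At the level of genes, a MYC peak overlapped an E2F1 peak at 4 members and at 24.5% of protein-coding genes. Fra-1 peaks overlapped E2F1 peaks at 9 of 13 places, against 61.5% of the whole Fra-1 list, and 6 of those pairs had summits within 91 bp. That overlap reached 5 members (25.6% of protein-coding genes), which were CLOCK, NR1D1, NR1D2, BHLHE40 and BHLHE41. MYC and Fra-1 met at 1 of 9 MYC peaks, where 21.4% of the whole MYC list overlapped a Fra-1 peak, and so at 1 of 13 Fra-1 peaks (5.93% of that list). Of the 43 E2F1 peaks, 8 overlapped a MYC peak (10.8% of the E2F1 list) and 9 a Fra-1 peak (28.3%), and 29 overlapped neither. By these shares most of the whole E2F1 list overlapped neither as well.

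The E-boxes themselves were then counted in the 4.5 kb window around the canonical TSS of each gene. The members held 21 CACGTG sequences, in 8 of 10 genes, where 46.5% of protein-coding genes have at least 1. NR1D2 had 5, NR1D1 had 4, PER1 and BHLHE41 had 3 each, PER3 and BHLHE40 had 2 each, and CLOCK and PER2 had 1 each. Windows with 3 or more were thus 4 of 10, against 4.23% of protein-coding genes. The list was drawn up from genes that act through the E-box or are driven from it, so these counts are not independent of the choice. Whether the choice accounts for the high number was not tested, and CRY1 and CRY2 had no E-box in the window.

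E2F1 peaks covered 10 of the 21 E-boxes (47.6%), MYC peaks 4 (19%) and Fra-1 peaks 0. Over all promoter E-boxes these shares were 24.2%, 8.94% and 0.64%. In genes with a promoter peak of the factor concerned, E2F1 covered 37.2% and MYC 34.7%, and the 4 members with MYC promoter peaks had 4 of 10 E-boxes (40%) under MYC peaks. NR1D2 had the most E-boxes and none was under a peak of any factor, while PER2 had a MYC peak away from its single E-box. In all, 11 of the 21 E-boxes were under no peak. By the shares over all promoter E-boxes given above, most of those were under no peak as well.

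**Figure D4:**
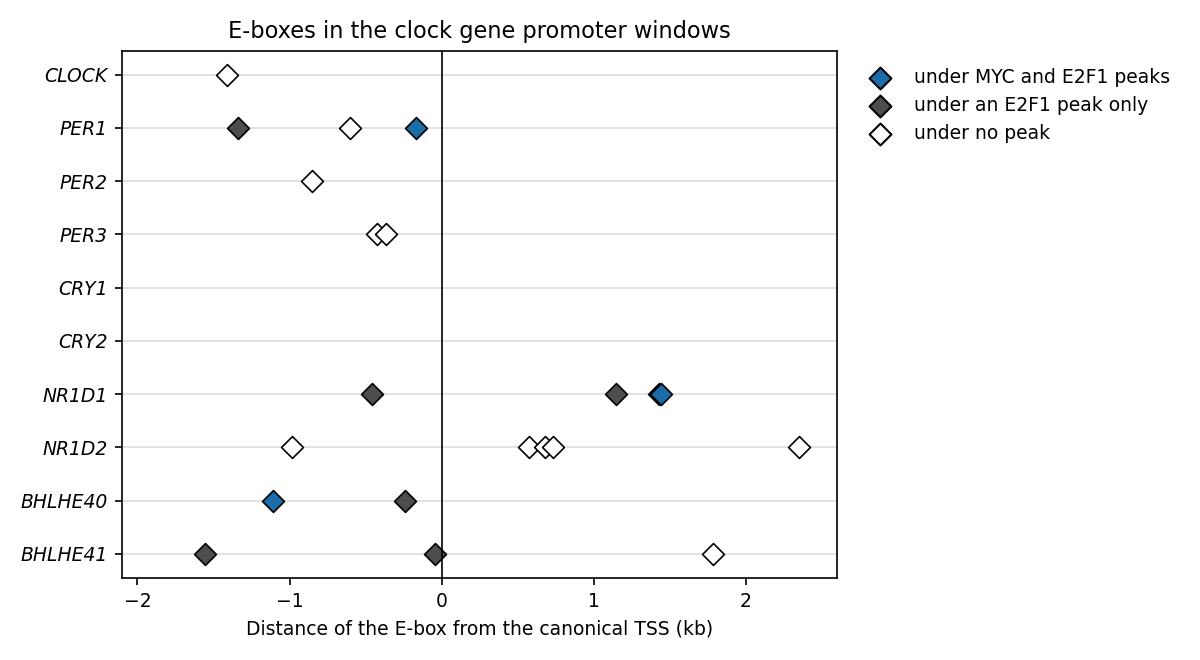
Position in kb of the 21 CACGTG sequences around the canonical TSS of the 10 clock genes, with blue diamonds under both MYC and E2F1 peaks, grey under an E2F1 peak only and white under no peak. The 4 blue diamonds are at PER1, BHLHE40 and NR1D1, and all 5 diamonds of NR1D2 are white.

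Within 50 bp of the summits, an E-box was found at 3 of 9 MYC peaks (1 at PER1 and 2 at NR1D1), against 16.8% of all MYC summits. AP-1 sites were found at 7 of 13 Fra-1 peaks, against 53.3% of all Fra-1 summits. E2F1 summits of the members had an E-box in 2 of 43 cases (2.56% of the list), an AP-1 site in 3 (12.2%) and an E2F motif in 1 (1.68%). With so few MYC peaks the first share has little weight, and the AP-1 share was near that of the whole list. In the shorter window from 250 bp upstream to 50 bp downstream of the TSS, CACGTG occurred at PER1, BHLHE40 and BHLHE41 (8.77% of all such windows), and no member had an AP-1 site or E2F motif there (3.58% and 4.4% of windows).

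The other genes of the clock, 18 in number, were looked at by the same rule. One of them, FBXL21P, is annotated as a pseudogene and had no peak, which leaves 17 protein-coding genes. E2F1 promoter peaks were found at 15 of these, MYC promoter peaks at 3 and Fra-1 promoter peaks at 4. The MYC-marked genes were DBP, which encodes a PAR bZIP activator (fold enrichment 9.21), CSNK1D, the gene of a kinase that phosphorylates PER proteins (9.3), and FBXW11, which encodes an F-box protein (5.87). CSNK1D had promoter peaks of all 3 factors, with 14.7 for Fra-1 and 42.1 for E2F1. BMAL1, the partner of CLOCK, had promoter peaks of Fra-1 (15.5) and E2F1 (11.2) and no MYC peak, and was named here after its values had been seen. The Fra-1 promoter peaks of CSNK1D and BMAL1 were both lost when protein-coding transcripts alone or 1 canonical transcript per gene were used. Under those settings CSNK1D therefore no longer had all 3 factors. MYC marked 4 of the 10 members and 3 of these 17 genes, and a difference of this size between short lists was not tested.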

How the data were processed

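LM2 cells were profiled by ChIP-Seq for E2F1, MYC and Fra-1, and the deposited peaks were used, 1 library per factor. According to the submitters' processing notes, the file headers and the study's methods, the authors used Trimmomatic 0.27 for trimming, Bowtie 0.12.5 for alignment to masked hg19, and SAMtools and Picard, and ran MACS2 2.0.10 on every library with the same input (cutoff q = 0.01). MACS2 kept 1 tag per position. Reads that could not be placed uniquely are missing, so such sequence gives no peaks.

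The signal deposited by the authors is the pileup at the summit, the fold enrichment is its ratio to the local background from the input, and p- and q-values are given on a −log10 scale. Scaling follows each library's depth, so values are only roughly comparable between factors and percentiles within each list are given. A second set of deposited lists with the same peaks was not used.

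Here peaks were joined to GENCODE 44 on GRCh37 (63827 genes). No peak lay past a chromosome end. Overlaps count from 1 bp. Pileup divided by fold enrichment gave an approximate background, allowing for a pseudocount. Motifs were searched on both strands. All 10 members are named, and of the other clock genes those with a MYC promoter peak or with all 3 factors. BMAL1 and FBXL21P were named in addition, after their values had been seen. Members and lists were chosen with earlier results of these data known. Wilson intervals (95%) describe counting error. The scripts were tested on simulated peaks. Scripts ran in Python 3.11.15 with matplotlib 3.10.9, scipy 1.17.1, pandas 2.3.3 and numpy 2.4.6. The alternatives were stricter cutoffs (−log10 q or fold enrichment of at least 5), lists of equal length, merged peaks, other windows, flanks and transcripts, other overlap rules and other motif settings. Strength as pileup and the CRE search were added after seeing the data. The fourth TF was not analysed here, and 1 summit sequence is not reported here.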

Additional observations from a re-analysis of the deposited data

How the results depend on the processing

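Over 36 results, 238 alternative values were computed and 201 stayed within 1.5 times the value given or, for a single peak, were identical. With each list reduced to its 4867 peaks of largest −log10 q, promoter peaks remained at 1 member for E2F1 (NR1D1, against 25.7% of protein-coding genes) and 1 for Fra-1 (NR1D1, 3.43%), so 1 member kept all 3 factors. In that setting the member peaks fell to 1 for E2F1 and 4 for Fra-1, MYC with E2F1 and Fra-1 with E2F1 each overlapped at 1 member, shared regions fell to 0, AP-1 at Fra-1 summits to 3, the E2F motif, E-box and AP-1 counts at E2F1 summits to 0, and other clock genes with promoter peaks to 2 for Fra-1 and 4 for E2F1. At a −log10 q of at least 5, MYC promoter peaks remained at 2 members (PER1 and NR1D1, against 12.7%), all 3 factors at 1, MYC peaks at 4, MYC with E2F1 at 2, shared regions at 0 and E-boxes at E2F1 summits at 1. A fold enrichment of at least 5 also left 1 such E-box. With 50% reciprocal overlap MYC with E2F1 was found at 2 members, Fra-1 with E2F1 at 3 and the shared region at 0. Merging peaks within 1 kb gave 26 E2F1 peaks.

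Protein-coding transcripts alone left 2 other clock genes with Fra-1 promoter peaks and 1 canonical transcript left 1, and the latter lowered the strongest E2F1 promoter peak of PER1 to 21.1. Windows of 1 kb either side lowered that of MYC at NR1D1 to 11.2 and removed the Fra-1 promoter peak of BHLHE41. Ranking by pileup picked other MYC peaks, of fold enrichment 6.9 at PER1 and 11.2 at NR1D1. Within 100 bp of summits, AP-1 was found at 11 Fra-1 peaks (84.6%, against 61.3% of the whole list), and at E2F1 peaks an E-box at 6 (14% against 4.98%) and AP-1 at 5 (11.6% against 17.7%). Anywhere in the peak, the E2F1 counts were 13 for the E-box (30.2% against 9.64%) and 10 for AP-1 (23.3% against 21.2%), and CANNTG was at 17 E2F1 summits (39.5% against 35.9%). The MYC promoter peaks of PER2 and BHLHE40 had −log10 q of 3.26 to 4.36, below those of PER1 and NR1D1. No paired analysis was possible because each factor has 1 library, and for the same reason no replicate could be left out.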
